A study of Mus musculus with 4 samples.

Results

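The genes described here are 41 mouse genes of the type I interferon response, out of 19751 genes with a named probe on the array. They were taken from a fixed list of gene symbols, chosen with earlier results of these data known. A probe was assigned to a gene through the RefSeq accession in the array design. Of the 41 genes, 39 had such a probe and 38 were measured. A gene counted as measured where WT or Bach2KO had its probe well above background on each of its 2 arrays. No probe carried an accession that the gene table gives for Mx1 or Mx2, which that table, built on the C57BL/6J genome, lists as transcribed pseudogenes. Ifi44, an interferon-induced gene, had log2 signals of -6.95 and -8.72 in WT and -6.54 and -4.35 in Bach2KO, was well above background on 1 array alone and was left out of the counts.

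The arrays measured RNA from alveolar macrophages, the phagocytes resident in the airspaces of the lung, of wild-type (WT) mice and of mice lacking the transcription repressor Bach2 (Bach2KO, Bach2-/-). They were sorted by flow cytometry from pools of 8 WT mice and of either 4 (treatment protocol) or 3 (design text) Bach2KO mice. Strain, age and the sorting gate are not given in the sources used here. Each genotype gave 1 RNA sample, which was split in 2 for separate amplification, Cy3 labelling and hybridisation. The 2 arrays of a genotype are therefore technical repeats, so differences between genotypes carry no p-value and no check by replicates, and an SD after ± covers 2 arrays of the same RNA. All 4 arrays were on 1 slide, the WT arrays at positions 4 and 3 and the Bach2KO arrays at positions 2 and 1, so genotype and slide position cannot be told apart.

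Type I interferons bind the receptor Ifnar1-Ifnar2 and, through the kinases Jak1 and Tyk2, activate a transcription factor complex that includes Stat2 and Irf9. The complex binds the interferon-stimulated response element in promoters and induces several kinds of gene. Effectors act on viral RNA, proteins or membranes, sensors detect foreign nucleic acid and start interferon production, and feedback genes restrain the pathway. The feedback group used here also holds signalling genes that are not brakes, Stat2 among them. Macrophages keep part of this program switched on at a low level without infection. Bach2 belongs to the CNC leucine zipper family and binds Maf recognition elements, whose core overlaps the AP-1 site.

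Values are log2 processed signal relative to the 75th percentile of the same array. A gene is said to have risen or fallen where each of the 4 possible Bach2KO to WT array ratios reached 2-fold one way, which is a threshold on size without a test. Signals of different probes are not compared with each other, because probes differ in their binding. The 27125 to 27918 probes well above background per array, of 39429, were similar in number between arrays. Between arrays of the same RNA, the 38 measured genes of the list differed with an SD of 0.13 in WT and 0.12 in Bach2KO (log2), and none of them by 2-fold. Bach2 itself was well above background on 1 WT and 1 Bach2KO array only, so it gave no check of the genotype labels. In whole populations of cells, more cells of a type and more RNA per cell cannot be told apart.

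Of the 38 measured interferon response genes, 15 rose in Bach2KO, none fell, and 23 met neither condition. Among all 15116 measured genes, 8.38% rose and 5.90% fell. The median difference of the list was 0.79 (log2, Bach2KO minus WT), against 0.063 over all measured genes. The values of the list ran from -0.64 for Dhx58 to 3.88 for Oasl2. The WT and Bach2KO arrays did not overlap for 37 of the 38 genes, 26 of them higher in Bach2KO and 11 lower, but arrays of all genes separated in the same way (45.6% higher and 39.5% lower). With scaling to the spiked-in control RNAs in place of the 75th percentile, every difference was lower by 0.72 and the median of all genes moved from 0.063 to -0.66. The list then had a median of 0.073, with 5 genes higher and 2 lower, against 4.15% and 21.0% of all genes. The 5 genes that rose under either scaling were Oasl2, Rsad2, Usp18, Cmpk2 and Ifitm3. Their WT processed signals were dim, 25.0 to 76.7, beside 75th percentiles of 1267 and 1513. With normexp background correction they still met the rule, but their differences were 2.89, 2.55, 2.48, 1.36 and 1.34 in that order. The main values were 3.88, 3.61, 3.43, 2.63 and 2.10, so the size of these rises depends on the background correction. The sign of the difference turned with spike-in scaling for Ly6e, Isg20, Xaf1, Ddx58, Parp9 and Parp14, with median scaling for Parp14, with quantile normalization for Trim30a, with normexp background correction for Ifit3 and with the mean of the probes of a gene for Herc6 and Ddx58.

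The counts were also taken under other settings, each beside its own background. With median scaling 13 of the 38 genes were higher (7.40% of all genes higher, 6.61% lower), with quantile normalization 14 (7.83% and 6.26%) and with normexp background correction 13 (6.07% and 3.95%), and none was lower under these 3. With the mean of the probes of a gene 14 were higher and none lower (7.95% and 5.80%). At 1.5-fold 20 were higher and 1 lower (14.8% and 12.8%), and at 3-fold 9 were higher and none lower (4.60% and 2.71%). Leaving out WT array 1 gave 16 higher (9.45% and 6.47%) and leaving out WT array 2 gave 15 (8.64% and 6.78%). Leaving out Bach2KO array 1 gave 17 (9.74% and 6.27%), with Sp100 and Ifi44 added. Ifi44, outside the 38 genes, counted as measured there only through Bach2KO array 2, where its signal was highest, so its addition carries no weight. Leaving out Bach2KO array 2 gave 15 (8.82% and 6.35%).

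**Figure D1:**
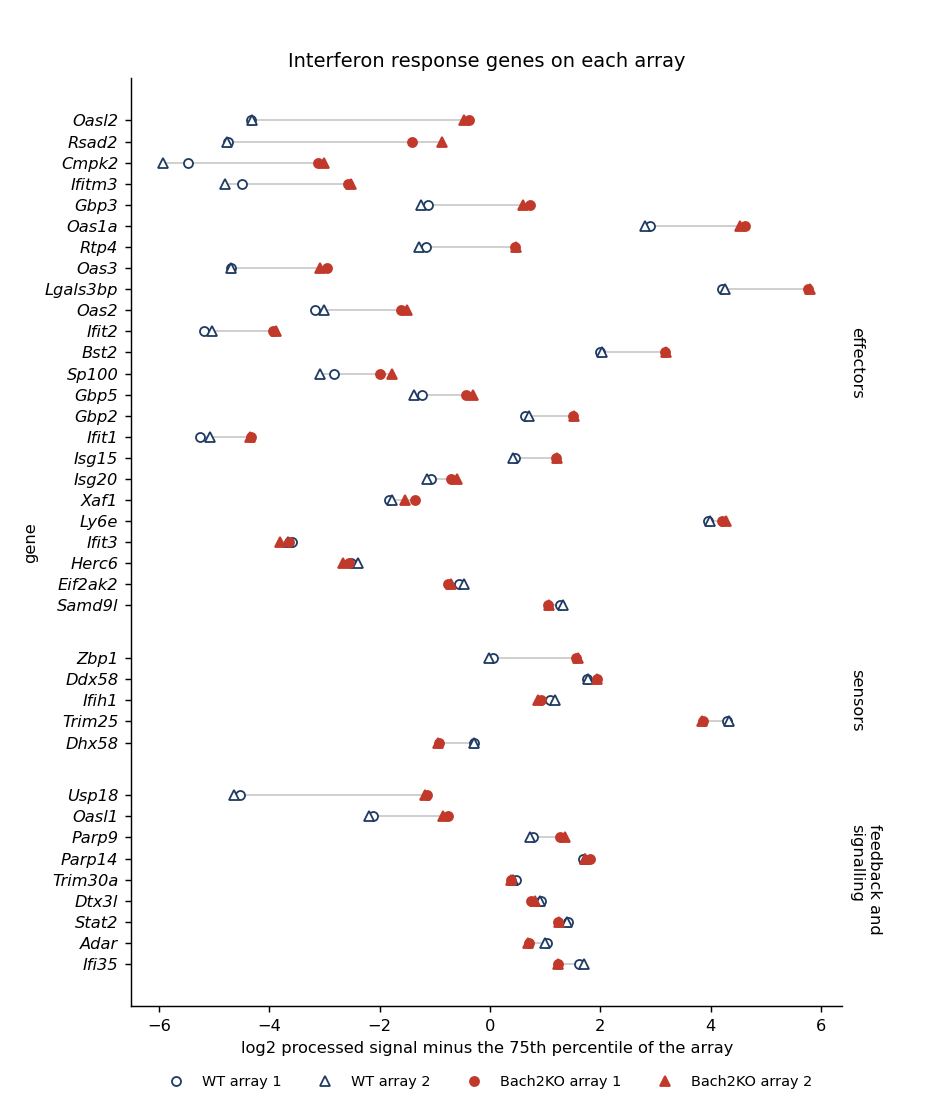
The log2 processed signal of each measured interferon response gene (rows, by role) relative to the 75th percentile of the array, with a symbol for each of the 2 WT and 2 Bach2KO arrays. The largest gaps between genotypes are those of Oasl2, Rsad2 and Usp18, and the arrays of the same RNA lie close together, with the widest gap for Rsad2 in Bach2KO (-1.42 and -0.87).

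Among the 15 genes that rose 12 were effectors. Of 24 measured effectors 12 rose, none fell and 12 met neither condition, with a median of 1.12. All 4 measured genes of 2-5A synthetase proteins rose. These enzymes are switched on by double-stranded RNA and make a messenger that activates RNase L. In WT, Oasl2 gave log2 signals of -4.32 and -4.30, and in Bach2KO -0.38 and -0.48. Both Bach2KO arrays were far above both WT arrays, and the means differed 14.7-fold (-4.31 ± 0.01 and -0.43 ± 0.07). The log2 difference of Oasl2 was 3.88, and 2.89 with normexp background correction. For Oas1a the signals were 2.90 and 2.81 in WT and 4.62 and 4.54 in Bach2KO, 3.30-fold higher. Its second probe gave a difference of 1.61, beside 1.72 for the brighter probe, although either may also bind the near-identical copy Oas1g. Oas2 rose 2.91-fold (-3.16 and -3.01, then -1.60 and -1.49). Oas3 rose 3.22-fold (-4.70 and -4.70, then -2.94 and -3.07). With spike-in scaling Oas2 differed by 0.82 and Oas3 by 0.97, Oas1a was also higher, and none of these 3 met the rule.

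The neighbouring genes Rsad2 and Cmpk2 both rose. Rsad2 encodes viperin, which makes a chain-terminating nucleotide, and Cmpk2 a nucleotide kinase that supplies its substrate. Rsad2 had signals of -4.74 and -4.77 in WT and -1.42 and -0.87 in Bach2KO, a 12.2-fold higher level. The Bach2KO arrays were less close to each other than for any other of the 38 measured genes, but both were at least 3.32 above both WT arrays on the log2 scale. Cmpk2 had signals of -5.47 and -5.92 in WT and -3.12 and -3.01 in Bach2KO, 6.19-fold higher. Its second probe, well above background on 3 arrays and dim in WT (-5.99 and -5.94), differed by 2.71. In the RefSeq gene table no protein-coding gene lies between the pair on chromosome 12. Isg20, an exonuclease that degrades RNA, differed by 0.45 and met neither condition.

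Genes of membrane-associated restriction factors differed in size. Ifitm3, whose protein blocks fusion of viruses with endosomes, rose from -4.50 and -4.80 to -2.57 and -2.52, 4.30-fold. Bst2, which encodes tetherin, a protein that holds budding virions at the cell surface, rose from 2.001 and 2.030 to 3.174 and 3.195, 2.25-fold. The rise of Bst2 ended with median scaling and with spike-in scaling (0.45). Ly6e, a lipid-anchored protein that limits coronavirus entry, differed by 0.27, and by -0.45 with spike-in scaling.

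The guanylate-binding proteins are GTPases that attack pathogen-containing vacuoles. Of their 3 listed genes, Gbp3 rose from -1.11 and -1.25 to 0.72 and 0.60, 3.59-fold. Gbp2 differed by 0.85 and Gbp5 by 0.94, each with Bach2KO arrays above both WT arrays but short of 2-fold in at least 1 pair. The 3 genes lie on chromosome 3 with 1 protein-coding gene between neighbours, and probes for this family may bind more than 1 member.

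The IFIT genes encode proteins that bind viral RNA. Of the 3, Ifit2 alone met the rule. Ifit2 rose 2.30-fold, with signals of -5.18 and -5.04 in WT and -3.93 and -3.88 in Bach2KO. That rise was lost with median scaling, quantile normalization, normexp background correction and spike-in scaling. Ifit1 differed by 0.82 and met neither condition. Ifit3, which lies next to Ifit2 on chromosome 19, had signals of -3.58 and -3.66 in WT and -3.64 and -3.81 in Bach2KO, and was the only measured gene of the list whose WT and Bach2KO arrays overlapped. Its probe may also bind the near-identical copy Ifit3b.

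Of the remaining effectors, Rtp4, a receptor chaperone gene whose protein limits virus replication, rose 3.23-fold (-1.17 and -1.29, then 0.46 and 0.48). Lgals3bp, which encodes a secreted galectin-binding glycoprotein, rose 2.94-fold (4.20 and 4.25, then 5.76 and 5.80), and its second probe differed by 1.60. Sp100, a nuclear body protein gene, differed by 1.06 with array pairs from 0.83 to 1.30 and so fell short of the rule. Isg15, the ubiquitin-like modifier gene, was 1.70-fold higher by its brighter probe (0.46 and 0.42, then 1.19 and 1.21) and differed by 0.81 by the other, and met neither condition. Herc6, the gene of its main conjugating ligase in mice, differed by -0.15 by the brighter probe and by 0.31 by the other. Eif2ak2, the double-stranded RNA-activated kinase PKR, and Samd9l, a translation inhibitor, differed by -0.22 and -0.24, and the pro-apoptotic gene Xaf1 by 0.36 by its brighter probe. These last 3 genes met neither condition. The other Xaf1 probe, well above background on 2 arrays, differed by 1.89, with array pairs from 0.25 to 3.54.

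Promoters of the listed genes are shown here because the genes share a regulator, the response element bound by the complex that holds Stat2 and Irf9. RefSeq promoter windows of build GRCm38.p6, from 250 bases before to 50 after a start, were found for 31 of the 41 genes. The letters GAAANNGAAA, on either strand, with any base at N, were in 16 of these 31 genes (51.6%), against 3.99% of all 27025 genes with a window. The letters TGAGTCA, the core shared by AP-1 and Bach-Maf sites, were in 5 of the 31 (16.1%), Rsad2, Oas3, Gbp2, Xaf1 and Ifi35, against 5.95% of all genes. They were in 2 of 11 genes of the list that rose (18.2%) and 3 of 19 that met neither condition (15.8%). Among all measured genes with a window they were in 8.47% of those that rose, 5.16% of those that fell and 4.64% of the others. Letters TGANTCA, a form chosen after seeing the data, were in 8 of 31 (25.8%), against 8.97%. The letters TTCNNNGAA of the gamma-activated site, an element of interferon gamma responses, were in 9 of 31 (29.0%), against 9.55%, and overlapped the response element in 2 windows. Bases before the start are printed 5′ to 3′ on the strand of the gene for 4 genes that rose and for Isg15 and Ifit1, which did not, with the letters of GAAANNGAAA and TGAGTCA, or their reverse complements, in capitals.
Rsad2: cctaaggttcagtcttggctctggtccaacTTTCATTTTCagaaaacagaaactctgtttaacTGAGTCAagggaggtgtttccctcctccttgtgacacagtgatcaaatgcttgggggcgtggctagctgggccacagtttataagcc
Oas3: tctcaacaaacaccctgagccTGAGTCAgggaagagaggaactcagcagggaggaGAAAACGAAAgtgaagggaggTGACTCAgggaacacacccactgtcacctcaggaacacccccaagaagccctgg
Oas1a: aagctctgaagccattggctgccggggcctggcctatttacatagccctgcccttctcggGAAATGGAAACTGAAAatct
Bst2: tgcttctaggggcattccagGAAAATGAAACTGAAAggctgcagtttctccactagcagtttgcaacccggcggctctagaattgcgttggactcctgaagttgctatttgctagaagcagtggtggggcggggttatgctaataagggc
Isg15: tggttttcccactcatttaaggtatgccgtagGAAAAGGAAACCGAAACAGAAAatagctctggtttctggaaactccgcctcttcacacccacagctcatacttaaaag
Ifit1: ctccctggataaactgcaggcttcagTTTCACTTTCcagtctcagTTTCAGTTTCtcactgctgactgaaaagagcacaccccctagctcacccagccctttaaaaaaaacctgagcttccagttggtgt

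The stretches lie at chr12:26456453-26456602 (minus strand) for Rsad2, chr5:120777660-120777789 (minus) for Oas3, chr5:120907526-120907605 (minus) for Oas1a, chr8:71537473-71537622 (minus) for Bst2, chr4:156200819-156200928 (minus) for Isg15 and chr19:34640759-34640888 (plus) for Ifit1. In Oas1a, Bst2 and Isg15 matches of the response element overlap each other, so that Isg15 holds 3 in a row. Rsad2 and Oas3 hold both kinds of letters, and Oas3 has TGAGTCA letters on both sides of its response element. Of the 16 measured genes with a match 6 rose, with a median of 0.83, and of the 14 without a match 5 rose, with a median of 0.40. Oasl2, which differed most of the list, had no match in its window. A match describes letters in a window and is not a known site.

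Of 5 measured sensor genes 1 rose, none fell and 4 met neither condition, and their median was -0.24. The RIG-I-like receptors detect viral RNA in the cytosol. Ifih1, which encodes Mda5, had signals of 1.09 and 1.18 in WT and of 0.92 and 0.88 in Bach2KO. Ddx58, which encodes RIG-I, had 1.75 and 1.77 in WT and 1.94 and 1.93 in Bach2KO. Dhx58, whose protein Lgp2 modulates the other 2, had -0.29 and -0.30 in WT and -0.93 and -0.94 in Bach2KO. Their differences of -0.24, 0.17 and -0.64 were larger than the gaps between arrays of the same RNA but met neither condition. By second probes, Ifih1 differed by -0.44 and Ddx58 by -0.29, the latter opposite in sign to its brighter probe.

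Trim25, the ubiquitin ligase gene that activates RIG-I, had signals of 4.29 and 4.33 in WT and 3.86 and 3.84 in Bach2KO, a difference of -0.46. With spike-in scaling Dhx58 and Trim25 were the genes of the list that fell (-1.36 and -1.18), whereas with 75th percentile, median or quantile scaling they met neither condition. Zbp1, which encodes a sensor of Z-form nucleic acid that triggers cell death, was the sensor gene that rose. By its brighter probe, designed on NM_001139519, it went from 0.06 and -0.01 to 1.55 and 1.59, 2.91-fold. By the probe designed on NM_021394 it differed by 0.29 and was not higher by the rule. The mean of the probes did not meet the rule either, so the rise of Zbp1 depends on the probe, as well as ending with spike-in scaling (0.82).

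Feedback and signalling genes split. Of 9 measured genes 2 rose (22.2%), none fell and 7 met neither condition, with a median of -0.06. Among all measured genes 8.38% rose and 5.90% fell. Usp18, which encodes the protease that removes Isg15 from proteins and also blocks signalling at Ifnar2, had signals of -4.53 and -4.64 in WT and -1.14 and -1.17 in Bach2KO. It was 10.8-fold higher, while Isg15 itself did not reach 2-fold. Oasl1, whose protein lacks synthetase activity and in mice restrains translation of Irf7, rose from -2.13 and -2.19 to -0.76 and -0.85, 2.56-fold. Oasl1 and Oasl2 are direct neighbours on chromosome 5, with differences of 1.35 and 3.88.

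The other feedback and signalling genes stayed short of 2-fold. Stat2, a subunit of the activated complex, had signals of 1.41 and 1.39 in WT and 1.22 and 1.25 in Bach2KO. Adar, whose enzyme edits double-stranded RNA and so keeps Mda5 quiet, differed by -0.31 by its brighter probe and by 0.15 by the other. The signalling regulator genes Ifi35 and Trim30a differed by -0.42 and -0.06. Parp14, Dtx3l and Parp9, adjacent genes on chromosome 16 whose products modify Stat signalling by ADP-ribosylation and ubiquitination, differed by 0.07, -0.15 and 0.56.

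**Figure D2:**
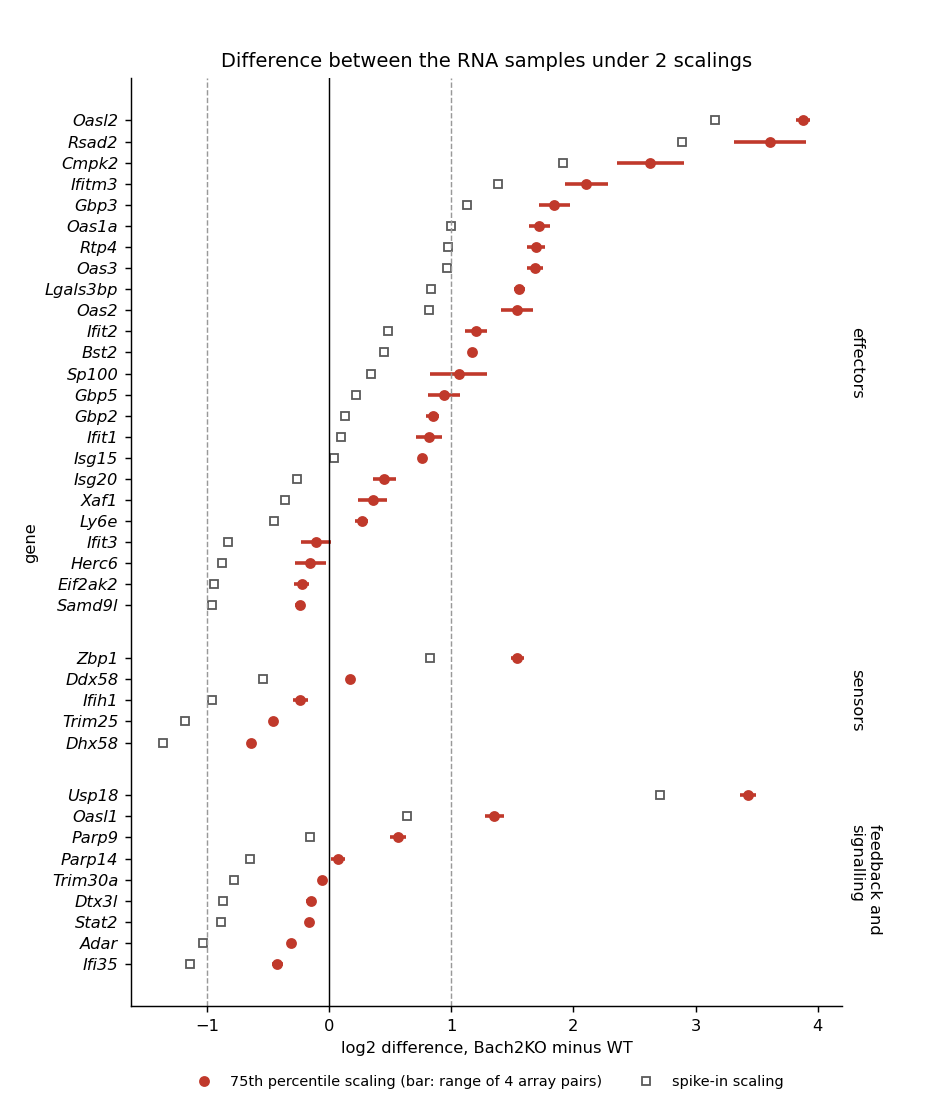
The log2 difference between Bach2KO and WT for each measured interferon response gene, by role, with filled circles for 75th percentile scaling, bars for the range of the 4 array pairs and open squares for spike-in scaling. Dashed lines mark 2-fold. The filled circles of 12 effectors, Zbp1, Usp18 and Oasl1 met the rule, and with spike-in scaling only Oasl2, Rsad2, Cmpk2, Ifitm3 and Usp18 did, since Gbp3 (1.13) fell short in at least 1 array pair.

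Set side by side, the median of the effectors was 1.12. That of the 14 sensor and feedback genes, signalling genes included, was -0.10, a gap of 1.22 on the log2 scale. A gap between lists within an array does not depend on a shift of the whole array, and it was 1.22 with spike-in scaling too, with medians of 0.40 and -0.82. Across the other scalings and background corrections it lay between 0.96 and 1.22. The sign of the sensor and feedback median was negative under each of these scalings, whereas the median of the feedback genes alone was 0.00 with quantile normalization and negative otherwise. Where the RNA-binding effectors Eif2ak2, Oas1a, Oas2 and Oas3 were counted as sensors and Isg15, Rtp4 and Trim25 as feedback genes, the gap was 0.88. The sensor median then turned from -0.24 to 0.86, with 4 of 8 sensors higher beside 8 of 18 effectors, and the sensor and feedback median from -0.10 to 0.12. The roles were assigned by hand, and genes of a role are not replicates of each other, so the gap carries no test.

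**Figure D3:**
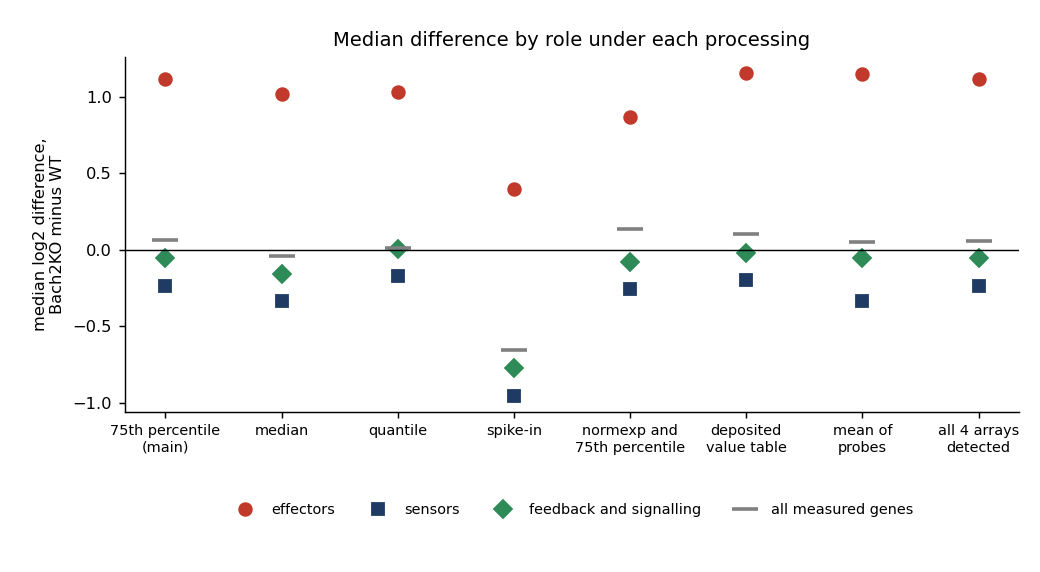
The median log2 difference, Bach2KO minus WT, over effectors (24 genes), sensors (5) and feedback and signalling genes (9), with the median of all measured genes as a grey bar, under 8 ways of processing. Effectors lie above the other roles in each column, from 0.40 with spike-in scaling to 1.15, while sensors lie below the median of all genes in each column.

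Genes upstream in the pathway were taken from lists outside the 41. Ifnb1 and Ifng, the interferon beta and gamma genes, were not well above background on any array. Of 11 measured interferon genes none rose or fell, although Ifnk, the interferon kappa gene (-1.21), was lower by the rule with median, quantile and spike-in scaling, and probes of the near-identical Ifna genes may bind several of them. Of 15 receptor and transducer genes 4 rose (26.7%), none fell and 11 met neither condition, against 8.38% higher and 5.90% lower of all measured genes. The type I receptor genes Ifnar1 and Ifnar2 differed by 0.45 and 0.73 and Irf9 by 0.38, with none of them meeting the rule. Ifnlr1, the receptor chain for type III interferon, was not well above background in WT (-6.56 and -7.07) and was at -0.42 and -0.34 in Bach2KO, at least 62.6-fold higher. That bound sets the Bach2KO signals against a floor on each WT array, which is the dimmest signal that still lay well above background or, where higher, that of the probe itself. The interferon gamma receptor gene Ifngr2 rose 2.36-fold, and the genes of the signalling brakes Socs1 and Socs3 rose 3.60-fold and 6.16-fold. With spike-in scaling (0.52) and with median scaling Ifngr2 did not meet the rule, and with spike-in scaling 2 genes of this list fell.

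Among 23 genes of nucleic acid sensing and interferon induction 1 rose (4.35%), 2 fell (8.70%) and 20 met neither condition. These shares lie near the 8.38% higher and 5.90% lower of all measured genes. Ikbke, the interferon-inducible kinase that phosphorylates Irf3 and Irf7, rose from -4.39 and -4.32 to -1.25 and -1.33, 8.36-fold. Trex1, the cytosolic DNA-degrading exonuclease gene, was 2.88-fold lower, and Irf5, which drives inflammatory cytokine genes downstream of Toll-like receptors, 2.38-fold lower. The adaptor genes Mavs and Sting1 differed by -0.48 and -0.01, and Irf7, itself interferon-induced, by 0.46. With spike-in scaling 1 gene of this list rose (4.35%) and 6 fell (26.1%), Mavs among them (-1.20), against 4.15% and 21.0% of all genes. Its median was then -0.68 in place of 0.04, close to the -0.66 of all genes.

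A wider list of interferon-stimulated genes outside the 41 moved in both directions. Of 63 measured genes 11 rose, 3 fell and 49 met neither condition, with a median of 0.22. The share that rose, 17.5%, compares with 8.38% of all genes. Slfn8, of the Schlafen family, rose 5.70-fold and Ifitm2, a close relative of Ifitm3, rose 5.25-fold. Ly6a, which encodes the surface protein Sca-1, was not well above background in WT and was at least 5.06-fold higher. In the other direction Fcgr1, the high-affinity IgG receptor gene, fell from 1.34 and 1.17 to -2.46 and -2.45, 13.1-fold lower. Gbp8 fell by 3.32 on the log2 scale (-2.23 and -2.05, then -5.63 and -5.30), and the chemokine gene Cxcl10 was 2.82-fold lower (-1.71 and -1.89, then -3.29 and -3.30). With normexp correction Cxcl10 and Ly6a did not meet the rule. With spike-in scaling this list had 9 genes higher (14.3%) and 12 lower (19.0%), against 4.15% and 21.0% of all genes. Its median was then -0.49, against -0.66 over all genes.

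Of 11 measured genes induced mainly by interferon gamma 7 fell, none rose and 4 met neither condition, with a median of -2.31, against 5.90% of all genes lower. Those that fell include MHC class II genes, which present peptides to T cells, and their master regulator. Most measured genes of this list belong to MHC class II presentation. Its counts and median therefore do not stand for interferon gamma-induced genes in general. Ciita, that regulator, fell from -3.07 and -3.23 to -5.62 and -5.59, 5.49-fold lower. H2-Aa fell by 3.32 on the log2 scale, the invariant chain gene Cd74 was 8.62-fold lower, H2-Ab1 7.26-fold and H2-DMa 5.71-fold lower. The medians of the list were below 0 under every scaling tried, from -3.03 with spike-in scaling to -1.14 with normexp correction.

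**Figure D4:**
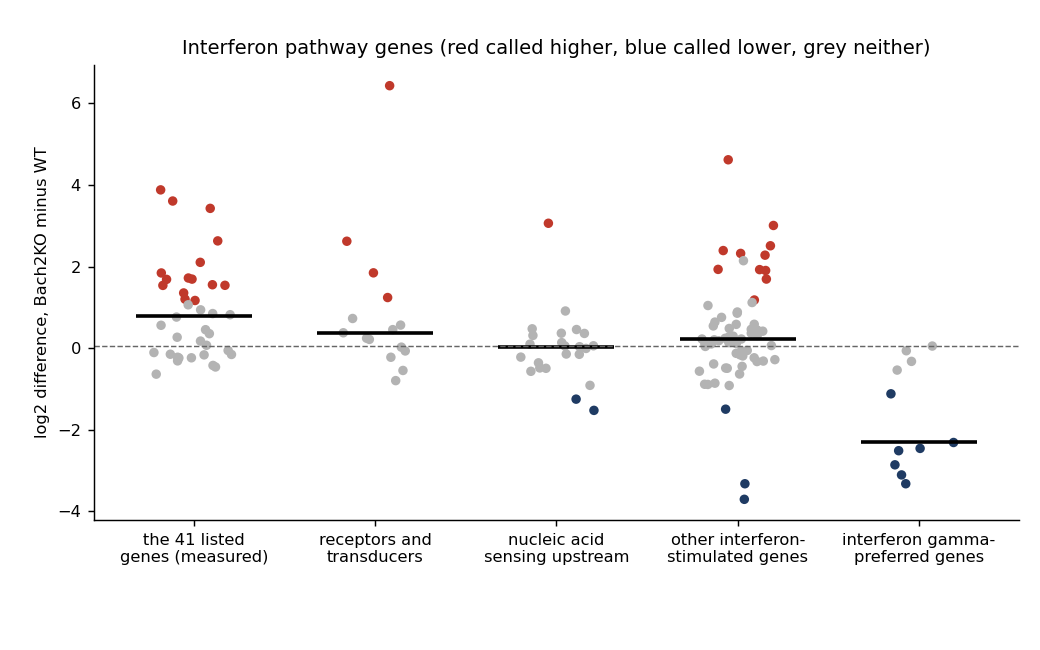
The log2 difference between Bach2KO and WT for each measured gene of 5 lists, with a black bar for the list median and a dashed line at the median of all measured genes (0.063). Genes not well above background in a genotype, such as Ifnlr1, are drawn at their measured difference and not at their bound. The 41 listed genes hold 15 points called higher and none lower. The interferon gamma-preferred list, made up mostly of genes of MHC class II presentation, holds 7 lower and none higher.

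Markers of alveolar macrophages and of other cells were measured beside the interferon genes. All 20 alveolar macrophage markers were measured, of which 2 rose, 7 fell and 11 met neither condition, and 10 of the 20 were above 0 (median -0.05). The brightest that met the rule were Ear2 (3.06-fold lower), Krt79 (16.8-fold lower) and Ear1 (4.56-fold lower), and the 2 that rose, named after their values were seen, were Spp1 (12.8-fold) and Fabp4 (3.00-fold). Their summed signal, in units of the 75th percentile, was 1599 to 1768 on the WT arrays and 1315 on both Bach2KO arrays. Of 21 monocyte and interstitial macrophage markers 9 rose, among them C1qb (7.90-fold) and C1qa (17.0-fold), and 3 fell, among them Nr4a1 (4.19-fold lower), with a summed signal of 122 to 125 in WT and 144 to 147 in Bach2KO. Of 12 markers of plasmacytoid dendritic cells, a source of interferon, 3 rose (Bst2, Cox6a2, and Il7r by at least 361-fold) and 1 fell. Bst2 is also one of the interferon response genes described above, so its rise here is the same measurement counted again. Which cells gave the Il7r signal was not tested. The summed signal of the plasmacytoid dendritic cell markers was 65.7 to 74.2 in WT and 67.0 to 67.6 in Bach2KO. Spib and Lag3 were not well above background on any array. Of 16 T cell markers 6 rose, among them Lck (2.97-fold) and Lat (3.39-fold), and Cd2 fell (3.81-fold lower) and was the only one of the 16 below 0, beside a median difference of 0.79, with sums of 62.4 to 62.9 and 25.6 to 25.9, and Cd247, Tcf7, Trat1 and Ctla4 were not well above background on any array. Neutrophil markers rose for 3 of 11, among them S100a8 (13.5-fold) and S100a9 (at least 32.4-fold), and Mmp8 fell (2.26-fold lower), with sums of 44.7 to 46.1 and 56.2 to 56.6. Endothelial markers rose for 2 of 6 (Vwf 2.56-fold and Cdh5 21.2-fold), while Tek, Emcn, Erg and Tie1 were not well above background on any array, with sums of 14.2 to 15.2 and 29.7 to 29.9. Of 8 NK cell markers Klra8 rose (at least 179-fold, with near-identical Klra copies), with sums of 5.02 to 5.36 and 7.44 to 7.78, and Ncr1, Klrd1 and Xcl1 were not well above background on any array. Of 9 B cell markers Cd79b rose (at least 2.62-fold), of 7 fibroblast markers Pdgfra (at least 6.33-fold), and none of 5 conventional dendritic cell and 3 eosinophil markers rose or fell. Of 11 epithelial markers Scgb1a1 (3.05-fold) and Sftpb (at least 2.18-fold) rose and Epcam fell (at least 98.1-fold lower). The part of these cells in the differences of the interferon response genes was not tested.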

How the data were processed

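Per the file headers, the authors obtained spot intensity from Agilent Feature Extraction (version 10.7.3.1, or 9.1 in the submitters' processing notes), with background subtraction and detrending within each array. The deposited value table holds log2 values, which equal the log2 processed signal minus a constant for each array (SD of the difference at most 3.5e-07 for probes with 1 spot). Column medians were -3.58, -3.67, -3.53 and -3.45.

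Control spots and outlier spots (109 to 136 per array) were left out, spots of a probe averaged on the log2 scale, and the 75th percentile of the array subtracted (1267 and 1513 in WT, 1036 and 979 in Bach2KO). A probe with several spots counted as well above background where this held for a share of at least 0.5 of them. Accessions were named through a RefSeq table of GRCm38.p6 (26055 of 39429 probes, none with several symbols). The brightest probe stood for a gene, and 13 of the listed genes had several. A gene not well above background on either array of a genotype had to reach 2-fold by its bound too.

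The genes, their roles, the lists and the motifs were chosen with earlier results of these data known. Named genes are Bach2, all 41, up to 5 called genes per pathway list by size, up to 3 of the brightest called markers per cell type, and Ifnb1, Ifnar1, Ifnar2, Irf9, Irf7, Ifng, Mavs, Sting1 and Cxcl10 regardless of value; 1 more gene that the rule names is not reported here. The size rule was tested on simulated data that held technical spread only, with differences planted in genes above the median signal. That simulation does not show how the rule performs for dim genes that differ or with variation between mice. Alternatives covered scaling (median, quantile, 9 E1A spike-in probes), normexp correction (limma 3.58.1, R 4.3.3, offset 50, on median spot signals), the deposited table, filters, probe averaging, outlier spots, thresholds of 1.5-fold and 3-fold, each array left out, the assignment of roles and, added after seeing the data, 7 genes with near-identical copies left out. Analyses ran in Python 3.11.15. The main limit is the 1 pooled RNA sample per genotype, since arrays of the same RNA measure technical spread only.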

Additional observations from a re-analysis of the deposited data

How the results depend on the processing

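No paired analysis was possible because the replicate numbers mark technical arrays of 1 RNA sample per genotype and no result comes from a test. With spike-in scaling there were 5 listed genes higher and 2 lower (main: 15 and 0), a list median of 0.073, 627 genes higher and 3173 lower over all (main: 1266 and 892), and 29 other pathway genes lower in place of 12. At 1.5-fold the list had 20 higher and 1 lower (Dhx58), all genes 2235 and 1932, and other pathway genes 25 and 20. At 3-fold 9 listed genes were higher, and 695 and 410 of all genes. The list median of 0.79 was 0.69 with median scaling, 0.74 with quantile normalization, 0.66 with normexp, 0.83 with the mean of probes and 0.56 without the 7 genes that have near-identical copies, where 12 of 31 measured genes were higher. The gap between effectors and the other roles, 1.22, was 1.07 with quantile normalization, 0.96 with normexp, 1.27 with no filter on dim probes, 0.88 with the other assignment of roles and 1.27 without the genes with copies. Leaving out each array in turn gave list medians of 0.75 to 0.81, gaps of 1.17 to 1.27, 15 to 17 listed genes higher and none lower, all genes 1318 to 1494 higher and 961 to 1034 lower, and other pathway genes 16 to 18 higher and 12 to 13 lower. Without Bach2KO array 1, Sp100 and Ifi44 were added to the genes that rose, but Ifi44 counted as measured only through Bach2KO array 2. Apart from spike-in scaling, Ifit2 and Bst2 were lost with median scaling, Ifit2 with quantile normalization, Oas3 and Ifit2 with normexp and Zbp1 with the mean of probes, and the cause was not tested.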
